A study of Homo sapiens with 2 samples.

Results

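The genes of protein folding, quality control and stress signalling in the endoplasmic reticulum (ER) were compared between 2 cultures of OVSAHO, a human line established from serous ovarian carcinoma. The set was a fixed list of 54 gene symbols out of 26255 in each table, and heat-shock protein and DNAJ genes were not part of it. Of these, 52 were found by the listed symbol and 2, ERO1L and ERO1LB, under their newer names ERO1A and ERO1B. The A2-siA4 culture had raised SMARCA2 and lowered SMARCA4, the alternative ATPases of the SWI/SNF chromatin remodeller. Its genotype label reads stable for SMARCA2 and knockdown for SMARCA4. The Ctrl-siNC culture was labelled wild type and carried the control treatments. Both grew for 2 days in carboplatin, a platinum drug that damages DNA, at 25 µM, so no culture without the drug was compared. There was 1 library per culture, and whether either culture was a single clone is not given in the sources used here.

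Proteins of the secretory pathway enter the ER through the Sec61 channel, receive N-glycans from the oligosaccharyltransferase, and fold with the help of lectin chaperones and of protein disulfide isomerases. Chains that fail to fold are returned to the cytosol and degraded by the proteasome, a route called ER-associated degradation (ERAD). The membrane sensors ATF6, IRE1 (ERN1) and PERK (EIF2AK3) respond to unfolded chains and raise folding and ERAD genes, in part through the transcription factor XBP1; this is the unfolded protein response. Gene levels do not show the splicing of XBP1 or the cleavage of ATF6 by which these factors are activated.

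Levels are FPKM, fragments per kilobase of transcript scaled to the mapped fragments, so they are per length. Setting levels of different genes side by side rests on the transcript lengths behind them, which are not given. About 8850000 fragments lay behind the A2-siA4 values and 9050000 behind the Ctrl-siNC values, as estimated from the spacing of low FPKM values. The targeted genes went the way the series text gives, with SMARCA2 at 2.60 FPKM in A2-siA4 and 0.205 FPKM in Ctrl-siNC, and SMARCA4 at 4.49 FPKM in A2-siA4 and 27.9 FPKM in Ctrl-siNC. Of 10 serous ovarian carcinoma markers, 9 were at 1 FPKM or more in each library, PAX8 among them; MUC16, which encodes the CA-125 antigen, was at 0 FPKM in A2-siA4 and 0.0608 FPKM in Ctrl-siNC. Of the leukocyte markers, CD68 was at 11.1 FPKM in A2-siA4 and 34.9 FPKM in Ctrl-siNC, while PTPRC and CD3E were at 0 in both; the part of other cells in the results was not tested. No endothelial or fibroblast marker reached 1 FPKM. Of 3 plasma cell markers in the tables, SDC1 was measured and MZB1 and TNFRSF17 were at 0 in both.

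With 1 library per culture there is no spread between replicates, no test and no p-value, and each difference below is between these 2 libraries. The 95% intervals in parentheses are exact binomial intervals on estimated fragment numbers and cover counting error alone. A gene was counted past 2-fold when it reached 1 FPKM in a library and log2((FPKM + 1)/(FPKM + 1)), A2-siA4 over Ctrl-siNC, was at least 1 or at most -1. Folds are ratios of FPKM without the added 1. In bulk RNA, a change per cell and a change in the share of cells with the gene cannot be told apart.

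The promoters of some of these genes carry known stress elements. These elements are shown because the factors released by the stress sensors are known to bind them. Promoters from RefSeq (build GRCh38.p14; 250 bases before to 50 after the start site, counted as 0) were found for 50 of the 54 genes, and not for DERL1, DERL3, PDIA3 and STT3B. The ER stress response element (ERSE), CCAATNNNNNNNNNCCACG on either strand, to which ATF6 binds together with NF-Y, was in 6 of the 50 (12%), against 0.0916% of 27305 genes in the promoter table. The match is in capitals, with up to 15 bases on each side, read in the direction of the gene; a match on the other strand appears as its reverse complement.
CALR (chr19:12938369-12938417, plus strand): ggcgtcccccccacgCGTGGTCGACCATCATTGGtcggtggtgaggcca
CANX (chr5:179698763-179698811, plus strand): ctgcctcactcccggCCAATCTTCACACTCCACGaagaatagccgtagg
CRELD2 (chr22:49918539-49918587, plus strand): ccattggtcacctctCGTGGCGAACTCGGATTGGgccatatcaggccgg
ERO1LB (chr1:236282168-236282208, minus strand): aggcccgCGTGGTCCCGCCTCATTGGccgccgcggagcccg
PDIA6 (chr2:10812838-10812886, minus strand): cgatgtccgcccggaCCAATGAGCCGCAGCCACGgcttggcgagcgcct
XBP1 (chr22:28800588-28800636, minus strand): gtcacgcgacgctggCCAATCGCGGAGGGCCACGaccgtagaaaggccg
The match began at -225 in CALR, -80 in CRELD2, -243 in ERO1LB, -86 in PDIA6 and -52 in XBP1. In CANX, the same bases lay at -189, -151 and -9 from alternative start sites.

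A related element, ERSE-II (ATTGGNCCACG, either strand), was in 3 of the 50 genes (6%), against 0.0696% of all genes. It began at -117 in HERPUD1 and -188 in SDF2L1, and HYOU1 held it at -185 and at -79, of which the second is shown.
HERPUD1 (chr16:56932010-56932050, plus strand): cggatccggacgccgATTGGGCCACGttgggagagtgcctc
HYOU1 (chr11:119057259-119057299, minus strand): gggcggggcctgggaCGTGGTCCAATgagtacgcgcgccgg
SDF2L1 (chr22:21642099-21642139, plus strand): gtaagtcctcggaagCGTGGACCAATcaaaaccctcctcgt
The XBP1-bound element UPRE (TGACGTGG, either strand) was in 7 genes (14%), HYOU1, SEC62, SSR3, SSR4, TXNDC11, TXNDC5 and VCP, against 0.927% of all genes; in HYOU1 it overlapped an ERSE-II match. With 1 mismatch allowed, ERSE was in 11 of the 50 genes and in 1.89% of all genes, ERSE-II in 6 and in 1.46%, and UPRE in 19 and in 20.2%. Genes with an element had ratios on both sides of 0. The 15 genes with any of the 3 elements had a median log2 ratio of -0.17, with 6 above 0 and 9 below, and the 35 with none had -0.10, with 16 above and 19 below. Among the 6 genes with ERSE, CALR, CRELD2 and PDIA6 had ratios above 0, and CANX, ERO1LB and XBP1 ratios below 0.

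All 54 genes were above 0 in both libraries and 53 were at 1 FPKM or more in both; ERN1 was under that level in A2-siA4. Their summed level was 7012 FPKM in A2-siA4 and 7375 FPKM in Ctrl-siNC, which was 0.81% of all FPKM in A2-siA4 and 0.772% in Ctrl-siNC. Levels ranged widely, with 22 genes at 100 FPKM or more in a library and 15 under 10 FPKM in both. SSR4, a subunit of the translocon-associated protein complex (TRAP), was the most abundant, and ERN1 the least.

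**Figure D1:**
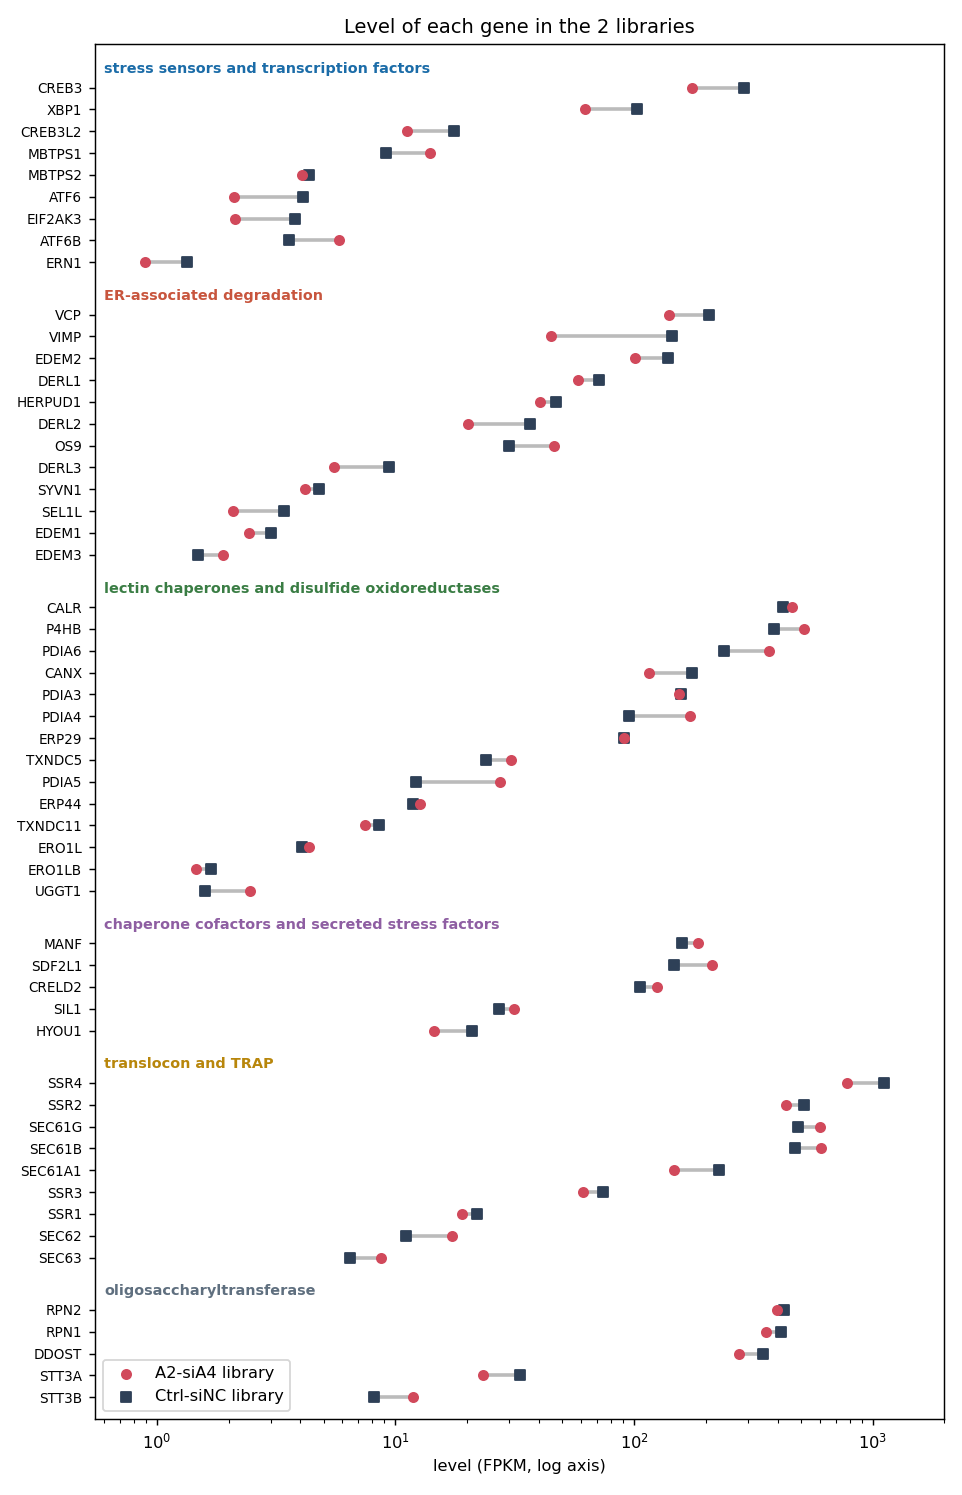
Level of each of the 54 genes in FPKM on a log axis, by role, with circles for the A2-siA4 library and squares for the Ctrl-siNC library. VIMP has the longest line, with 44.8 FPKM in A2-siA4 and 144 FPKM in Ctrl-siNC.

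Few of the genes differed by more than 2-fold. PDIA5 was the 1 gene past 2-fold upward (1.85% of the 54, against 7.85% of all 11785 genes at 1 FPKM or more in a library), and VIMP was the 1 past it downward (1.85%, against 7.61%). Past 1.5-fold on the same scale, 5 were higher (9.26%, against 19.1% of all genes) and 10 were lower (18.5%, against 21.3%). The share of lower genes past 1.5-fold was near that of all genes. At these levels, counting error was small: the interval lay wholly above 1 for 19 of the 54 (35.2%, against 32.3% of the 11284 genes with a usable transcript length) and wholly below 1 for 25 (46.3%, against 39.4%). The median log2 ratio of the 54 was -0.15 and that of all genes -0.06. Of the 54, 23 had a ratio above 0 and 31 below, against 5484 above and 6301 below of all 11785 genes.

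**Figure D2:**
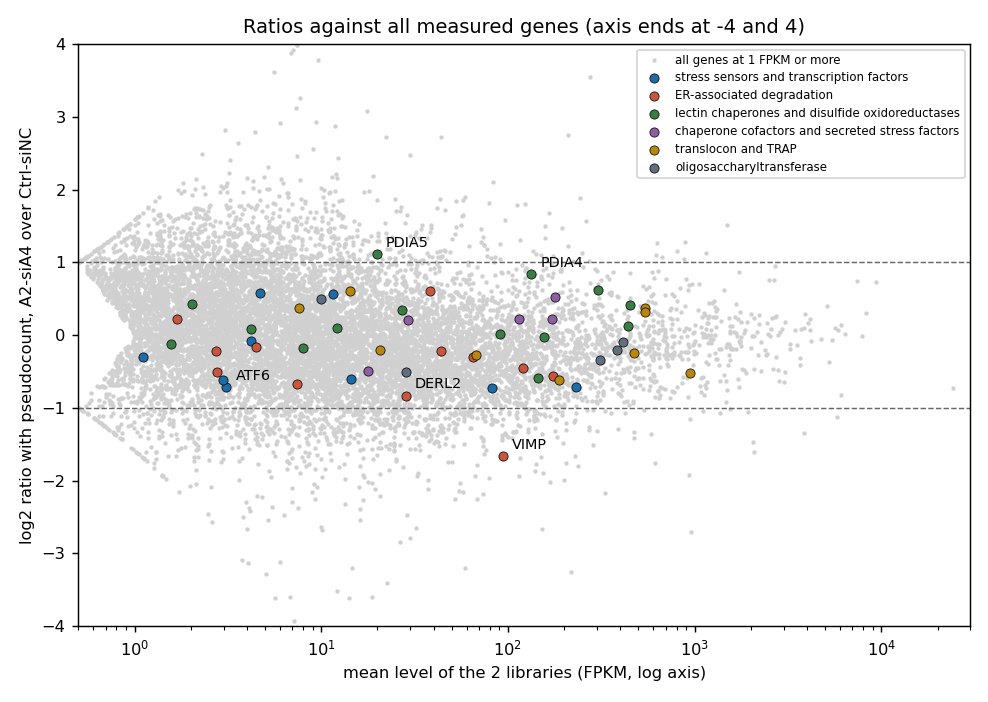
Log2 ratio with the added 1 FPKM against mean level on a log axis, for all 11785 genes at 1 FPKM or more in a library (grey; a few lie beyond the axis ends) and for the 54 genes coloured by role. PDIA5 at 1.11 and VIMP at -1.66 lie outside the dashed 2-fold lines, and the other 52 lie between them.

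The role groups, which were drawn with earlier results of these data known, did not share 1 direction. The stress sensors and transcription factors had a median log2 ratio of -0.60, with 7 of 9 below 0, and the ERAD genes -0.38, with 10 of 12 below 0. The lectin chaperones and disulfide oxidoreductases had a median of 0.11, with 10 of 14 above 0, and the chaperone cofactors 0.22, with 4 of 5 above 0. The translocon and TRAP genes had a median of -0.21 with 4 of 9 above 0, and the oligosaccharyltransferase subunits -0.20 with 1 of 5 above 0; both of these medians changed sign once trends on length, GC content and level were removed.

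**Figure D3:**
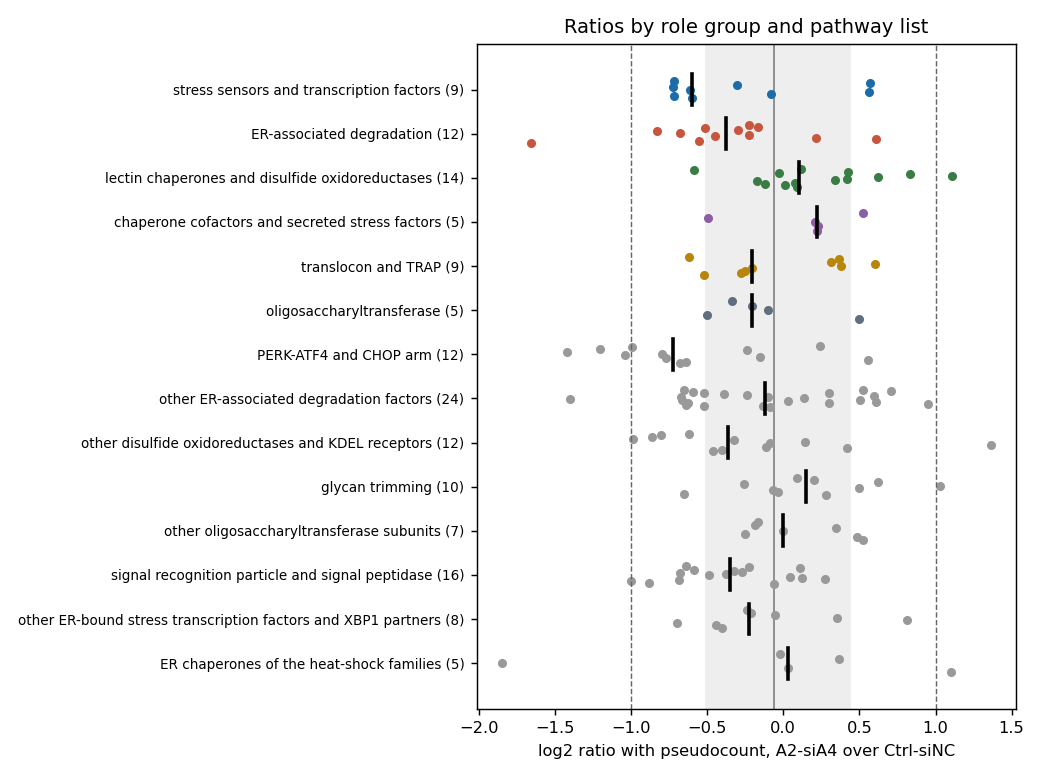
Log2 ratios with the added 1 FPKM in the 6 role groups (coloured) and in 8 lists of other genes of the pathway (grey), with the number of genes at 1 FPKM or more in parentheses and the median as a black bar. The shaded band spans the interquartile range of all genes, from -0.51 to 0.44, and the medians of the stress sensors (-0.60) and of the PERK-ATF4 and CHOP arm (-0.73) lie to its left.

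Among the stress sensors, each of the 3 transmembrane sensors was lower in A2-siA4. ATF6, which is cut in the Golgi to release a transcription factor, was at 2.1 FPKM in A2-siA4 and 4.10 FPKM in Ctrl-siNC, 1.95-fold lower (1.58 to 2.41). EIF2AK3, the kinase that phosphorylates the initiation factor eIF2 alpha, was at 2.13 FPKM in A2-siA4 and 3.80 FPKM in Ctrl-siNC, 1.78-fold lower (1.35 to 2.38). ERN1, the kinase and ribonuclease that splices XBP1, was at 0.89 FPKM in A2-siA4 and 1.34 FPKM in Ctrl-siNC, 1.5-fold lower (1.08 to 2.13), on about 60.5 fragments in A2-siA4 and 92.8 in Ctrl-siNC. These 3 were weakly expressed, and their intervals are correspondingly wide. ATF6B, the paralog of ATF6, went the other way, at 5.80 FPKM in A2-siA4 and 3.57 FPKM in Ctrl-siNC, 1.62-fold higher (1.21 to 2.19). The level of ATF6 relative to ATF6B was therefore 0.363 in A2-siA4 and 1.15 in Ctrl-siNC, and the intervals of the pair did not overlap.

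The transcription factors of this group were more abundant than the sensors. XBP1 was at 62.0 FPKM in A2-siA4 and 103 FPKM in Ctrl-siNC, 1.66-fold lower (1.53 to 1.81). CREB3, an ER-anchored factor that is released by cleavage as ATF6 is, was at 175 FPKM in A2-siA4 and 288 FPKM in Ctrl-siNC, 1.65-fold lower (1.57 to 1.73). CREB3L2, its relative, was at 11.2 FPKM in A2-siA4 and 17.5 FPKM in Ctrl-siNC, 1.56-fold lower (1.38 to 1.78). The Golgi proteases that cut ATF6 differed from each other. MBTPS1, which makes the first cut, was at 13.9 FPKM in A2-siA4 and 9.12 FPKM in Ctrl-siNC, 1.53-fold higher (1.33 to 1.76), whereas MBTPS2, which makes the following cut within the membrane, was at 4.05 FPKM in A2-siA4 and 4.34 FPKM in Ctrl-siNC, with an interval that held 1.

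In ERAD, the largest difference of the 54 genes was that of VIMP (selenoprotein S), a membrane protein that anchors the ATPase VCP at the ER. VIMP was at 44.8 FPKM in A2-siA4 and 144 FPKM in Ctrl-siNC, 3.21-fold lower (2.88 to 3.57). It stayed past 2-fold under every pseudocount, scaling, filter and trend setting tried, and lay within 4-fold. Other parts of the same retrotranslocation machinery were lower by less. VCP, the ATPase that pulls chains out of the membrane, was at 141 FPKM in A2-siA4 and 207 FPKM in Ctrl-siNC, 1.47-fold lower (1.42 to 1.53). DERL2, a derlin of the retrotranslocation channel, was at 20.1 FPKM in A2-siA4 and 36.5 FPKM in Ctrl-siNC, 1.82-fold lower (1.61 to 2.06). Its paralog DERL1 was at 58.0 FPKM in A2-siA4 and 71.6 FPKM in Ctrl-siNC, 1.23-fold lower (1.15 to 1.33), and the intervals of these 2 derlins did not overlap. DERL3, the third derlin, was at 5.50 FPKM in A2-siA4 and 9.40 FPKM in Ctrl-siNC, but 87.3% of its annotated exon bases also lie in exons of SMARCB1 on the opposite strand. SMARCB1, itself a SWI/SNF subunit, was at 54.8 FPKM in A2-siA4 and 64.3 FPKM in Ctrl-siNC, and since the libraries do not mark strand, the DERL3 value is uncertain.

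In the ubiquitin ligase complex at the centre of ERAD, the ligase and its adaptor were weakly expressed. SYVN1, the ligase, was at 4.16 FPKM in A2-siA4 and 4.80 FPKM in Ctrl-siNC with an interval that held 1, and SEL1L, its adaptor, was at 2.09 FPKM in A2-siA4 and 3.41 FPKM in Ctrl-siNC, 1.63-fold lower (1.23 to 2.15). HERPUD1, a stress-induced scaffold of that complex, was at 40.2 FPKM in A2-siA4 and 47.1 FPKM in Ctrl-siNC, 1.17-fold lower (1.06 to 1.29), but its log2 ratio was 0.03 with trends on length, GC content and level removed, against -0.22 as measured. OS9, the lectin that hands misfolded glycoproteins to SEL1L, stood apart from these, at 46.3 FPKM in A2-siA4 and 29.995 FPKM in Ctrl-siNC, 1.54-fold higher (1.39 to 1.72). The EDEM proteins trim mannose from glycans of chains bound for ERAD. EDEM2, the abundant one, was at 101 FPKM in A2-siA4 and 139 FPKM in Ctrl-siNC, 1.37-fold lower (1.28 to 1.47). EDEM1, at 2.43 FPKM in A2-siA4 and 3.01 FPKM in Ctrl-siNC, and EDEM3, at 1.89 FPKM in A2-siA4 and 1.49 FPKM in Ctrl-siNC, had intervals that held 1.

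**Figure D4:**
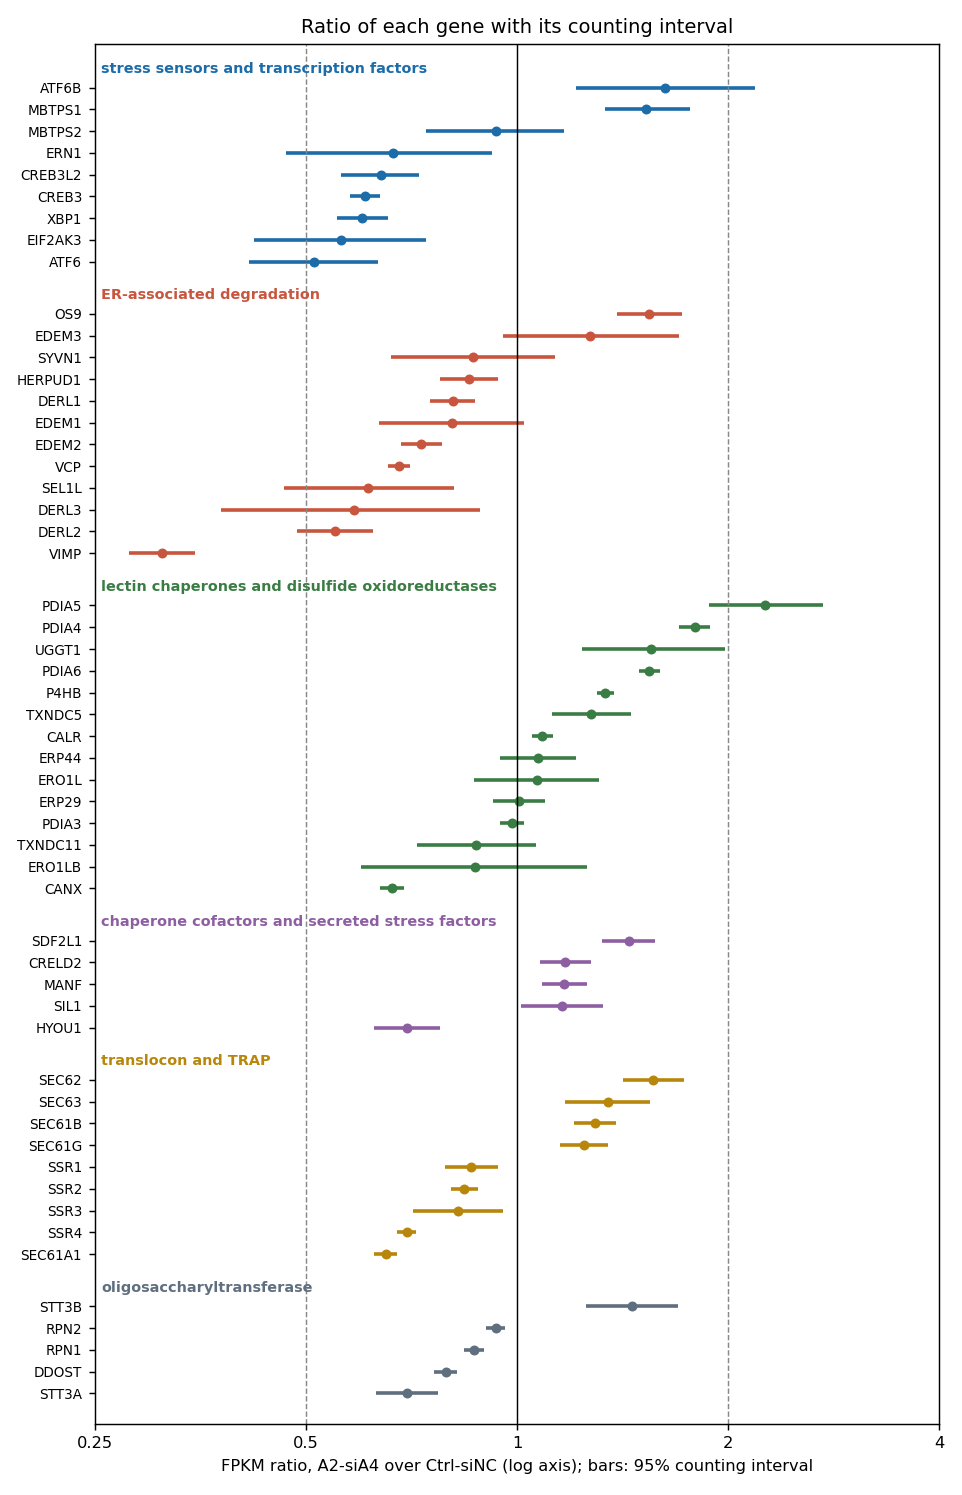
FPKM ratio of each gene, A2-siA4 over Ctrl-siNC, on a log axis with its 95% counting interval, by role and sorted within each role; dashed lines mark 2-fold. Of the ERAD genes, OS9 alone has an interval wholly above 1, and 8 have one wholly below 1.

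Several genes of the protein disulfide isomerase family had higher levels in A2-siA4, which did not extend to the ER oxidases or to the other oxidoreductases listed further on. These enzymes make and reshuffle disulfide bonds, and the 9 of the family summed to 1376 FPKM in A2-siA4 and 1022 FPKM in Ctrl-siNC, 1.35-fold higher. PDIA5 was at 27.5 FPKM in A2-siA4 and 12.2 FPKM in Ctrl-siNC, 2.26-fold higher (1.88 to 2.73). PDIA4 was at 171 FPKM in A2-siA4 and 95.4 FPKM in Ctrl-siNC, 1.79-fold higher (1.70 to 1.89). PDIA6, which also acts on the stress sensors by reducing their disulfides, was at 367 FPKM in A2-siA4 and 238 FPKM in Ctrl-siNC, 1.54-fold higher (1.49 to 1.60). P4HB, the founding isomerase, was the most abundant gene of this group, at 515 FPKM in A2-siA4 and 386 FPKM in Ctrl-siNC, 1.34-fold higher (1.30 to 1.37). PDIA3, the isomerase that works with calnexin and calreticulin on glycoproteins, was at 154 FPKM in A2-siA4 and 157 FPKM in Ctrl-siNC with an interval of 0.944 to 1.02 for the ratio, which does not overlap those of PDIA4 and PDIA6. The difference was thus unequal across these genes.

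TXNDC5, another isomerase, was at 30.5 FPKM in A2-siA4 and 23.9 FPKM in Ctrl-siNC, 1.28-fold higher (1.12 to 1.45). Its exons are shared with the read-through locus BLOC1S5-TXNDC5, listed at 14.7 FPKM in A2-siA4 and 0.637 FPKM in Ctrl-siNC. Summed over both loci the FPKM ratio was 1.84. How reads were divided between the loci, and whether read-through itself differed, was not tested, so the TXNDC5 value is uncertain. TXNDC11 was at 7.49 FPKM in A2-siA4 and 8.57 FPKM in Ctrl-siNC. ERP29, an isomerase-like protein without the redox site, was at 90.9 FPKM in A2-siA4 and 90.3 FPKM in Ctrl-siNC, and ERP44, which retains the ER oxidases, at 12.6 FPKM in A2-siA4 and 11.8 FPKM in Ctrl-siNC. The intervals of these 3 held 1. The oxidases that recharge the isomerases were low in both libraries, ERO1L at 4.33 FPKM in A2-siA4 and 4.05 FPKM in Ctrl-siNC and ERO1LB at 1.46 FPKM in A2-siA4 and 1.68 FPKM in Ctrl-siNC, also with intervals that held 1.

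The lectin chaperones differed among themselves. Calreticulin, CALR, the soluble one, was at 458 FPKM in A2-siA4 and 422 FPKM in Ctrl-siNC, 1.09-fold higher (1.05 to 1.12). Calnexin, CANX, its membrane-bound counterpart, was at 116 FPKM in A2-siA4 and 175 FPKM in Ctrl-siNC, 1.51-fold lower (1.45 to 1.57), and the level of CANX relative to CALR was 0.252 in A2-siA4 and 0.414 in Ctrl-siNC. UGGT1, which tags misfolded glycoproteins for another round with these chaperones, was at 2.46 FPKM in A2-siA4 and 1.58 FPKM in Ctrl-siNC, 1.55-fold higher (1.24 to 1.98). With trends on length, GC content and level removed its log2 ratio was -0.07, against 0.42 as measured.

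Among the chaperone cofactors, SDF2L1, a partner of ER J-proteins, was at 212 FPKM in A2-siA4 and 147 FPKM in Ctrl-siNC, 1.44-fold higher (1.32 to 1.57). MANF, a secreted factor induced by ER stress, was at 186 FPKM in A2-siA4 and 159 FPKM in Ctrl-siNC, 1.17-fold higher (1.09 to 1.26), and CRELD2, another such factor, was at 124 FPKM in A2-siA4 and 106 FPKM in Ctrl-siNC, 1.17-fold higher (1.08 to 1.27). The nucleotide exchange factors of the ER chaperone BiP went apart. SIL1 was at 31.4 FPKM in A2-siA4 and 27.1 FPKM in Ctrl-siNC, 1.16-fold higher (1.01 to 1.32), and HYOU1 was at 14.6 FPKM in A2-siA4 and 20.9 FPKM in Ctrl-siNC, 1.44-fold lower (1.29 to 1.60). Both HYOU1 and SDF2L1 carry the ERSE-II shown above, and their ratios lay on opposite sides of 1.

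At the entry to the ER, the subunits of the Sec61 channel did not keep 1 proportion. SEC61A1, which forms the pore, was at 147 FPKM in A2-siA4 and 227 FPKM in Ctrl-siNC, 1.54-fold lower (1.48 to 1.60). The small subunits were higher: SEC61B was at 608 FPKM in A2-siA4 and 471 FPKM in Ctrl-siNC, 1.29-fold (1.21 to 1.38), and SEC61G at 604 FPKM in A2-siA4 and 485 FPKM in Ctrl-siNC, 1.24-fold (1.15 to 1.35). The level of SEC61A1 relative to SEC61B was 0.242 in A2-siA4 and 0.481 in Ctrl-siNC. SEC62 and SEC63, which help chains enter after their synthesis, were both higher, SEC62 at 17.3 FPKM in A2-siA4 and 11.1 FPKM in Ctrl-siNC (1.56-fold, 1.41 to 1.73) and SEC63 at 8.71 FPKM in A2-siA4 and 6.47 FPKM in Ctrl-siNC (1.35-fold, 1.17 to 1.55). The 4 subunits of TRAP, which sits beside the channel, all had lower FPKM in A2-siA4, but with trends on length, GC content and level removed SSR2 and SSR3 had log2 ratios above 0. SSR4 was at 779 FPKM in A2-siA4 and 1119 FPKM in Ctrl-siNC, 1.44-fold lower (1.39 to 1.48), and SSR2 at 434 FPKM in A2-siA4 and 516 FPKM in Ctrl-siNC, 1.19-fold lower (1.14 to 1.24). SSR3 was at 61.1 FPKM in A2-siA4 and 74.2 FPKM in Ctrl-siNC, 1.21-fold lower (1.05 to 1.41), and SSR1 at 19.0 FPKM in A2-siA4 and 22.1 FPKM in Ctrl-siNC, 1.16-fold lower (1.06 to 1.27). Levels within this complex spanned 41.0-fold in A2-siA4 and 50.7-fold in Ctrl-siNC.

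The oligosaccharyltransferase has alternative catalytic subunits, and these differed in opposite directions. STT3A, which glycosylates chains as they enter through the channel, was at 23.3 FPKM in A2-siA4 and 33.4 FPKM in Ctrl-siNC, 1.44-fold lower (1.30 to 1.59). STT3B, which acts on sites that were skipped, was at 11.9 FPKM in A2-siA4 and 8.12 FPKM in Ctrl-siNC, 1.46-fold higher (1.25 to 1.70). The level of STT3A relative to STT3B was 1.96 in A2-siA4 and 4.11 in Ctrl-siNC. MAGT1 and TUSC3, the oxidoreductase subunits found in complexes with STT3B, were higher as well, MAGT1 at 26.9 FPKM in A2-siA4 and 19.0 FPKM in Ctrl-siNC, and TUSC3 at 10.2 FPKM in A2-siA4 and 6.77 FPKM in Ctrl-siNC; they were set beside STT3B after their values were seen. The shared subunits were far more abundant and differed less. RPN1 was at 358 FPKM in A2-siA4 and 413 FPKM in Ctrl-siNC, 1.15-fold lower (1.12 to 1.19), RPN2 at 396 FPKM in A2-siA4 and 425 FPKM in Ctrl-siNC, 1.07-fold lower (1.04 to 1.11), and DDOST at 274 FPKM in A2-siA4 and 347 FPKM in Ctrl-siNC, 1.26-fold lower (1.22 to 1.31). The directions of RPN1 and RPN2 turned with the trends removed, and that of RPN2 also when each library was scaled to the same FPKM sum.

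Of 102 other genes of the pathway in 8 lists, 94 were at 1 FPKM or more in a library. Past 2-fold, 3 were higher and 5 were lower, against 7.85% and 7.61% of all genes. Log2 ratios were above 0 for 33 and below 0 for 61, against 5484 and 6301 of all 11785 genes. The median of the 94 was -0.20, and -0.03 with trends on length, GC content and level removed. The PERK-ATF4 and CHOP arm, a transcription programme that EIF2AK3 can drive, held 3 of the 5 among its 12 genes and none of the 3. Of the 12, 2 had log2 ratios above 0 and 10 below. Their median was -0.73, against -0.06 for all genes, and -0.48 with trends on length, GC content and level removed. Whether these levels follow EIF2AK3 was not tested. PPP1R15A, the stress-induced phosphatase subunit that reverses PERK signalling, was at 24.8 FPKM in A2-siA4 and 67.9 FPKM in Ctrl-siNC, 2.74-fold lower (2.47 to 3.05). ATF3 was at 12.4 FPKM in A2-siA4 and 29.8 FPKM in Ctrl-siNC, 2.41-fold lower (2.02 to 2.86), and CHAC1, a glutathione-degrading enzyme induced through ATF4, at 6.73 FPKM in A2-siA4 and 14.9 FPKM in Ctrl-siNC, 2.21-fold lower, with no interval for want of a matched transcript length. DDIT3, which encodes CHOP, stood just short of the rule at a log2 ratio of -0.99, with 105 FPKM in A2-siA4 and 211 FPKM in Ctrl-siNC, and was singled out after its value was seen. ATF4 was at 108 FPKM in A2-siA4 and 91.0 FPKM in Ctrl-siNC.

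In the other lists, 1 of 24 further ERAD factors passed, the VCP adaptor UBXN8, at 5.34 FPKM in A2-siA4 and 15.8 FPKM in Ctrl-siNC, 2.95-fold lower (2.13 to 4.23), and the list had 10 log2 ratios above 0 and 14 below. Of 12 other oxidoreductases and KDEL receptors, QSOX2 passed, at 2.63 FPKM in A2-siA4 and 0.408 FPKM in Ctrl-siNC, 6.45-fold higher (3.79 to 11.7). As measured, that list as a whole leaned the other way, with a median log2 ratio of -0.36 and 9 of the 12 below 0. Of its intervals, 9 lay wholly below 1. Among its KDEL receptors, KDELR2 and KDELR3 had ratios below 0 and KDELR1 a ratio above 0. The lean of the list was slight, at a median of -0.08, once the trends on level, GC content and length were taken out. Its 4 transmembrane thioredoxin-related genes, singled out after their values were seen, had log2 ratios with the added 1 FPKM of -0.62 for TMX1, -0.80 for TMX2, -0.86 for TMX3 and -0.99 for TMX4, all short of the rule. Of 10 glycan-trimming genes, the mannosidase MAN1A2 passed, at 5.53 FPKM in A2-siA4 and 2.19 FPKM in Ctrl-siNC, 2.52-fold higher (2.1 to 3.04), and 6 of the 10 had log2 ratios above 0. None of 7 other oligosaccharyltransferase subunits passed, with TMEM258 at 1277 FPKM in A2-siA4 and 1278 FPKM in Ctrl-siNC and OST4 at 1160 FPKM in A2-siA4 and 913 FPKM in Ctrl-siNC. None of 16 genes of the signal recognition particle, signal peptidase and related translocation factors passed, with SRP14 at 842 FPKM in A2-siA4 and 986 FPKM in Ctrl-siNC and SPCS1 at 200 FPKM in A2-siA4 and 281 FPKM in Ctrl-siNC. Of the 16, 12 had ratios below 0. Their median log2 ratio was -0.35, and -0.10 with trends on length, GC content and level removed. None of 8 other ER-bound factors and XBP1 partners passed, with TMBIM6 at 382 FPKM in A2-siA4 and 519 FPKM in Ctrl-siNC and RTCB, the ligase that joins spliced XBP1, at 114 FPKM in A2-siA4 and 151 FPKM in Ctrl-siNC. Of 5 ER chaperones of the heat-shock families, 1 passed upward and 1 downward. DNAJC3, an inhibitor of PERK, was at 13.9 FPKM in A2-siA4 and 5.94 FPKM in Ctrl-siNC, 2.34-fold higher (2.04 to 2.70). DNAJB9 was at 9.42 FPKM in A2-siA4 and 36.6 FPKM in Ctrl-siNC, 3.88-fold lower (3.33 to 4.53). HSPA5, which encodes BiP, was at 195 FPKM in A2-siA4 and 198 FPKM in Ctrl-siNC.

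The ratios of all genes varied with level and on transcript length. Across 11358 genes with a length, Spearman's rho of the log2 ratio was 0.16 with length and -0.25 with level, whereas across the 54 genes rho was -0.0076 with length and 0.0074 with level; genes within a library are not independent replicates. The median log2 ratio of all genes was 0.21 among those with transcripts of 3962 bases or more, and that of the 20 of the 54 genes in the same length range was -0.16. With trends on length, GC content and level removed, the medians of the stress sensors and of the ERAD genes were -0.42 and -0.31, and those of the lectin chaperones and oxidoreductases and of the chaperone cofactors 0.27 and 0.51. The medians of the translocon group and of the oligosaccharyltransferase changed sign, to 0.04 and 0.06.

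**Figure D5:**
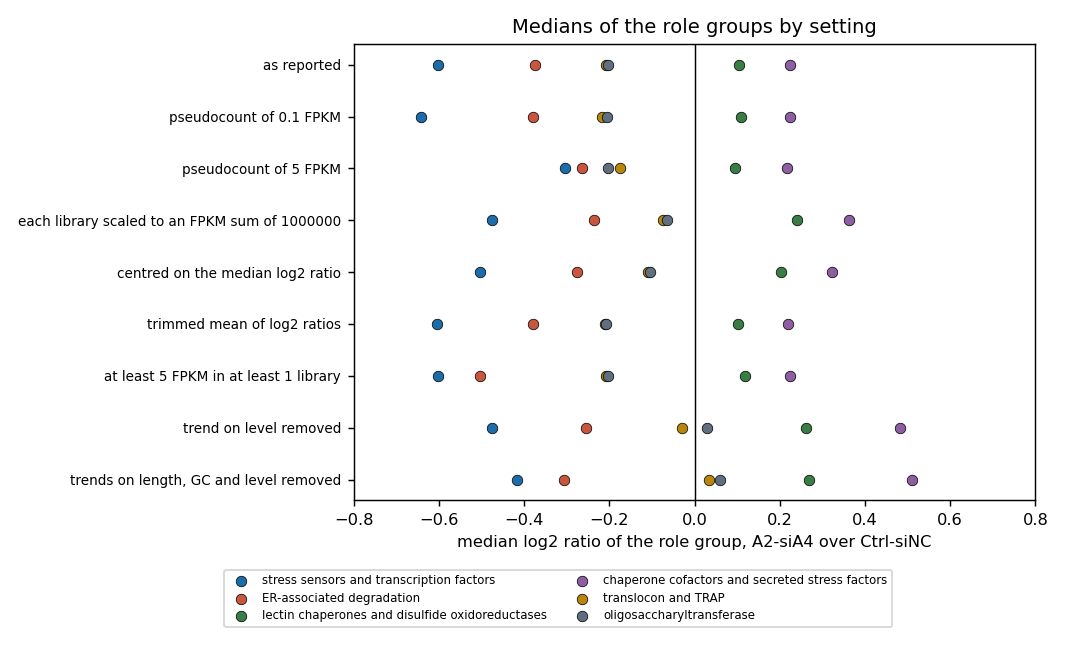
Median log2 ratio of each role group, A2-siA4 over Ctrl-siNC, as reported and under 8 other settings. The stress sensors lie between -0.64 and -0.30 and the chaperone cofactors between 0.22 and 0.51 throughout. The oligosaccharyltransferase group crosses 0 in both trend settings. The translocon group crosses it only with trends on length, GC content and level removed.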

How the data were processed

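RNA was measured in 1 library for each of 2 groups, which the genotype labels define. Complementary DNA came from a SMART-Seq kit, which does not mark strand, and libraries from Nextera XT, per the labels' protocols. The deposited values are FPKM per gene symbol, per the file headers. Cuffdiff 2.2.1, TopHat2 2.1.1, SAMtools 0.1.18, Bowtie2 2.2.8 and the build hg19 stand in the submitters' processing notes. For annotation, filters and scaling between libraries, the sources used here give no method.

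From these values, log2 ratios were computed with a pseudocount of 1 FPKM, over the 11785 genes that reached 1 FPKM in either library. The pseudocount understates the change of weakly expressed genes. Fragment numbers were estimated from FPKM, the median length of RefSeq-matched GENCODE 29 transcripts less 200 bases, and the depth that put the most low values at whole fragments. They rest on lengths that may differ from those the authors used, and PCR copies are not independent molecules, so intervals are too narrow as statements about cultures. The procedure was tested on data simulated with the same lengths and counting error alone, so that test did not cover these limits. All 54 genes were named with both FPKM. The rule for naming asked for fold and interval for genes past 2-fold and, in each role group, the 2 most abundant and the 2 with the largest ratios; most other members also got them. In the other lists it named up to 3 genes per direction past 2-fold, or the 2 most abundant where none passed. ATF4, DDIT3, HSPA5, MAGT1, TUSC3 and the TMX genes fall outside it and were chosen after their values were seen. The genes and lists were chosen with earlier results of these data known, and so were the role groups. Promoters are of build GRCh38.p14 and were read by symbol; no coordinate was taken from the expression tables. No protein sequences were used. For the leukocyte markers, 1 gene and the sum over the list are not reported here. Python 3.11.15, numpy 2.4.6, pandas 2.3.3 and scipy 1.17.1 were used.

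Alternatives were pseudocounts of 0.1 and 5 FPKM, an equal FPKM sum, a trimmed mean of ratios, subtraction of the median ratio, other filters, rules of 1.5-fold and 4-fold, and cubic trends on level alone or on length, GC content and level. Medians of the role groups under these settings were added after the data were seen.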

Additional observations from a re-analysis of the deposited data

How the results depend on the processing

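No paired analysis was possible because each group had 1 library. PDIA5 was past 2-fold upward in all settings but 2: none of the 54 genes was with a pseudocount of 5 FPKM (0 genes) or under a 4-fold rule (0 genes). Under the 1.5-fold rule 5 were higher and 10 lower, and under the 4-fold rule 0 were lower. With the trend on level removed, 2 were higher (PDIA4 joined PDIA5), and with trends on length, GC content and level removed 2 were higher and 2 lower (ATF6 joined VIMP). The median log2 ratio of the 54 was -0.043 with an equal FPKM sum, -0.017 with the trend on level removed and -0.0031 with all trends removed, against -0.15 as reported; a shift of 0.1 was taken as a move. An equal FPKM sum moved the median of all genes from -0.06 to 0.08. The direction of no gene past 2-fold was reversed. Signs of other genes changed for 0 to 8 of the 54: MBTPS2, PDIA3 and RPN2 with an equal sum, MBTPS2 and PDIA3 with centring, PDIA3, RPN1 and RPN2 with the trend on level removed, and HERPUD1, EDEM3, UGGT1, PDIA3, SSR2, SSR3, RPN1 and RPN2 with all trends removed. Depth limits the weakest genes: DERL3, ERO1LB and ERN1 rest on the fewest fragments (about 37.5, 56.6 and 60.5 in A2-siA4).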

Other observations

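Several of the 54 genes share annotated exon bases with other loci; how many reads this touches was not tested. Of the 54, 20 shared at least 5% of their exon bases with another gene of the GENCODE 29 annotation, and for 8 of these the other gene was listed in the tables. Besides DERL3 and TXNDC5, PDIA6 shared 29.7% of its exon bases with ATP6V1C2, listed at 0.506 FPKM in A2-siA4 and 0.19 FPKM in Ctrl-siNC, far below PDIA6 itself. DDOST shared 20.1% with PINK1-AS (11.9 FPKM in A2-siA4 and 14.3 FPKM in Ctrl-siNC), PDIA3 16.8% with ELL3 (2.01 FPKM in A2-siA4 and 5.89 FPKM in Ctrl-siNC) and SSR4 16.2% with IDH3G (130 FPKM in A2-siA4 and 175 FPKM in Ctrl-siNC). The processed copies PDIA3P1 and SSR4P1 were listed at 1.49 and 0.823 FPKM in A2-siA4 and at 0.116 and 0.161 FPKM in Ctrl-siNC, on about 1.38 and 3 fragments in Ctrl-siNC, and reads could not be traced to copy or parent gene here.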
